A study of Mus musculus with 8 samples.

Results

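The Dlk1-Dio3 cluster is a large group of mouse miRNA hairpins on the distal part of chromosome 12, and its mature miRNAs were followed here through cardiomyocytes of sham-operated and pressure-overloaded hearts. Members were taken by name, from a list of 57 mature miRNAs encoded in the region, with earlier results of these data known. Of these, 51 had an entry among the 697 mature miRNAs of the count tables, and the 6 others (miR-380-5p, miR-376a-3p, miR-154-3p, miR-539-5p, miR-770-3p and miR-679-5p) were not analysed here. A mean above 10 counts over the 8 libraries was met by 26 members and by 409 miRNAs in all, and a mean above 100 counts by 10 members and by 223 miRNAs. These 26 members are given singly and the other 25 as a sum. The minimum fell between miR-337-5p, with a mean of 10.6 counts, and miR-543-3p, with a mean of 8.62 counts.

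Male mice with no transgene stated were operated on at 2 months of age. They underwent either a sham procedure or transverse aortic constriction (TAC), which narrows the aorta with a ligature and loads the left ventricle with pressure. Cardiomyocytes were released from the hearts by Langendorff perfusion at 14 weeks, a time described as counted from surgery and, in 1 sentence of the methods, as the age of the mice, and small RNA was sequenced from 4 sham and 4 TAC libraries, each from the cells of 1 heart. The miRNA counts summed to 4628214, 5392576, 4906888 and 4005668 in Sham 1 to 4, and to 5507169, 7798943, 6340327 and 7223304 in TAC 1 to 4. The study describes the mice as 4 pairs, and which sham and TAC libraries belong together is not stated. The libraries hold RNA from many cells at once, so that fewer cells of a type and less RNA per cell cannot be told apart.

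The Dlk1-Dio3 region is imprinted. The protein-coding genes Dlk1, Rtl1 and Dio3 are read from the paternal chromosome, whereas the long noncoding transcripts Meg3, Rian and Mirg, and the miRNAs cut from them, come from the maternal one. The cluster is best known from embryo, placenta and brain, and is far weaker in most adult tissues. In muscle its transcription has been tied to the factor MEF2A, and the miRNAs that lie opposite Rtl1 pair perfectly with the Rtl1 mRNA and direct its cleavage.

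Sequences were taken from RefSeq annotation of GRCm38.p6, which held 54 of the 57 listed names, 48 of the 51 in the count tables and 25 of the 26 given singly. miR-376c-3p, miR-485-5p and miR-487b-3p are named only. Each matched member had a single locus on the plus strand, and together they span 180.0 kb (chr12:109563744-109743784). The sequences below, written 5′ to 3′, are those on which the results turn: the dominant member, the arm pairs whose ratio is described later, the members most alike in sequence, and miR-541-5p, an abundant member with every TAC value below every sham value by miRNA total. Names are those of the count tables, with the prefix mmu for mouse, which is left out elsewhere. Capitals mark the seed, bases 2 to 8, with which a miRNA recognises its targets.
mmu-miR-127-3p: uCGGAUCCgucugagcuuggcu
mmu-miR-434-5p: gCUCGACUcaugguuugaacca
mmu-miR-434-3p: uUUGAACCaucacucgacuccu
mmu-miR-382-5p: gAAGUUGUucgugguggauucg
mmu-miR-382-3p: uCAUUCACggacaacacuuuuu
mmu-miR-300-3p: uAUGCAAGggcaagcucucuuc
mmu-miR-381-3p: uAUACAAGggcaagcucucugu
mmu-miR-379-5p: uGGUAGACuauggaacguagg
mmu-miR-411-5p: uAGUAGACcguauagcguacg
mmu-miR-379-3p: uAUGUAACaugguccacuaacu
mmu-miR-411-3p: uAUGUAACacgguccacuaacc
mmu-miR-541-5p: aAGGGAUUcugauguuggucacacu

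Among the 25 single members with a sequence, the seed AUGUAAC was the only one carried by more than 1 member, namely miR-379-3p and miR-411-3p, whose mature forms differ at 2 positions. miR-300-3p and miR-381-3p have the same length of 22 bases and differ at 3 positions, counted from 1 at the 5′ end of miR-300-3p: G4A within the seed, and U21G and C22U at the other end. miR-379-5p and miR-411-5p, both of 21 bases, differ at 7 positions, of which G2A is the one within the seed. How tags that match more than 1 of these were assigned is not given in the sources used here. The longest of these was miR-541-5p with 25 bases.

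By position the members fall into 2 blocks. The upstream block includes the hairpins of miR-433, miR-127, miR-434 and miR-136, which lie opposite an exon of Rtl1 (miR-127-3p at chr12:109592888-109592909, miR-434-5p at chr12:109594528-109594549 and miR-136-3p at chr12:109595366-109595387), and those of miR-341 and miR-370, in introns of Rian. The downstream block, the miR-379/410 group, starts at miR-379-5p (chr12:109709065-109709085), 168.1 kb from the start of Meg3, and ends at miR-410-3p (chr12:109743764-109743784) within Mirg. miR-382-5p (chr12:109733781-109733802) lies in an exon of Mirg, and miR-541-5p and both arms of miR-409 in its introns. miR-379, miR-411, miR-300 and miR-381 lie between Rian and Mirg, outside the annotated genes.

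**Figure D1:**
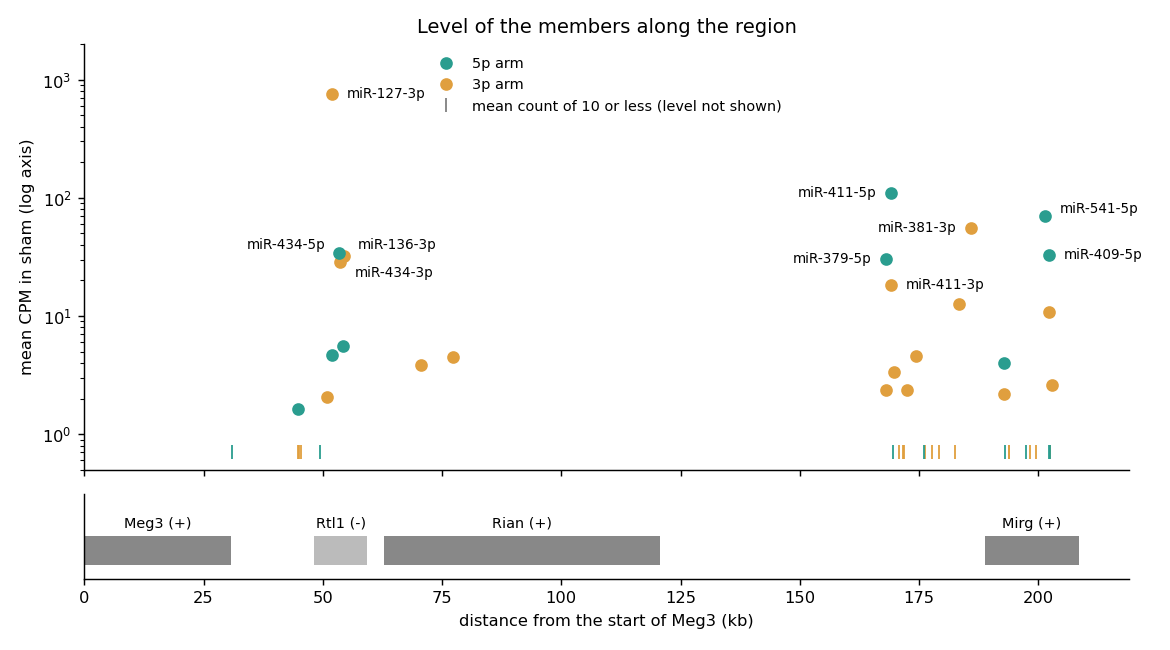
Mean level in the 4 sham libraries (CPM by miRNA total, log axis) of the single members with a known position, against the distance from the start of Meg3 in kb; colour gives the arm, ticks mark the members with a mean of 10 counts or less, and bars below show the annotated genes with their strand. miR-127-3p, at 51.9 kb, stands above every other member, and the rest of the higher levels lie near 54 kb and from 168 to 202 kb.

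Sham 2 and TAC 4 stood apart from the other libraries of their groups in the level of the cluster, and are named here before the comparison because many of the results below move with them. The level used is the CPM, a count relative to the miRNA total of its library. Sham 2 held the highest sham value of 18 of the 26 members, against 28.9% of all 409 miRNAs, and TAC 4 held the highest TAC value of 17 of 26, against 26.7%. Both applied to 13 members, against 13.9% of all miRNAs. Set against the mean of the other 3 libraries of the group on a log2 scale, with 0.5 CPM added, the median member was 0.82 higher in Sham 2 and 0.76 higher in TAC 4, while the median over all 409 miRNAs was 0.061 and -0.089. A difference above 1 was found for 9 members in Sham 2 and 10 in TAC 4, against 5.87% and 8.31% of all miRNAs, and for none in the 6 other libraries. miR-541-5p, miR-434-5p, miR-341-3p and miR-433-3p were highest in neither, as were 58.4% of all miRNAs.

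**Figure D2:**
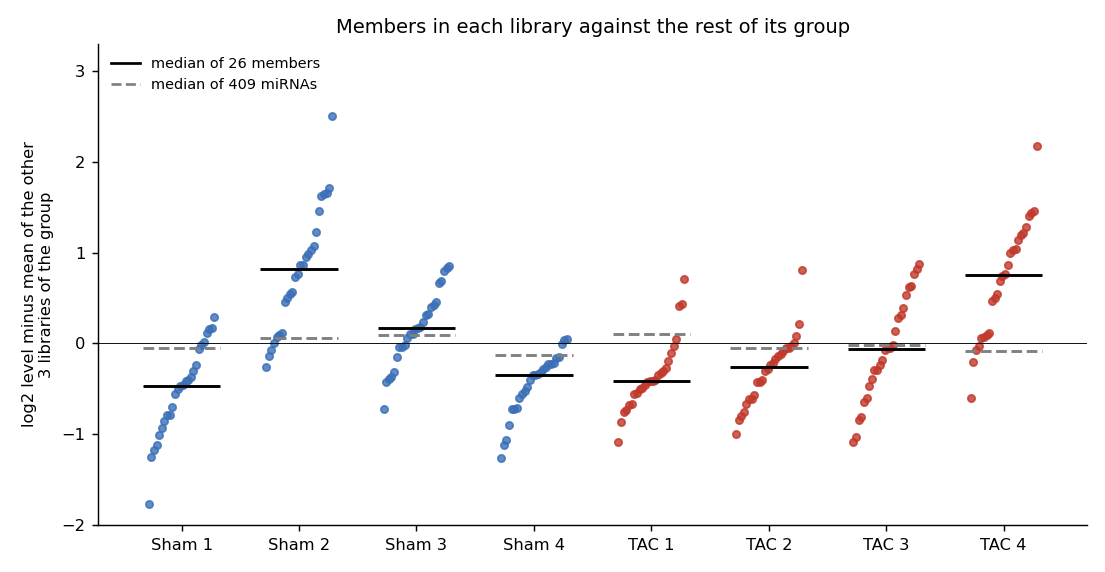
Level of each of the 26 members in a library minus the mean of the other 3 libraries of its group (log2 CPM, 0.5 added); points are members, solid lines their median and dashed lines the median of all 409 miRNAs. Members lie mostly above 0 in Sham 2 and TAC 4, with medians of 0.82 and 0.76, and their medians lie between -0.47 and 0.16 in the other libraries.

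Other miRNAs stood out in one or both of these libraries, and they were picked after their values had been seen. miR-206-3p, a miRNA of skeletal muscle, had 1390 CPM in Sham 2 and 199 to 240 CPM in the other sham libraries, but 243 CPM in TAC 4, within the 184 to 251 CPM of the other TAC libraries. miR-10b-5p, encoded in a Hox gene cluster, had 3278 CPM in Sham 2 and 1175 to 1428 CPM in the other sham libraries, and 1821 CPM in TAC 4 against 723 to 1191 CPM in the other TAC libraries. miR-208b-3p, a cardiomyocyte miRNA from an intron of Myh7, was also highest in both, with 71.2 CPM in Sham 2 against 26 to 36.5 CPM in the other sham libraries, and 105 CPM in TAC 4 against 39.6 to 78.3 CPM in the other TAC libraries. In TAC 4 the epithelial list was high: its 11 miRNAs, none of them at 0 in any library, summed to 1599 CPM there, to 394, 380.6 and 293 CPM in TAC 1 to 3, and to 409, 502, 387 and 320 CPM in Sham 1 to 4. Its most abundant miRNA, miR-200a-3p, had 505 CPM in TAC 4, 106 to 154 CPM in TAC 1 to 3 and 118 to 196 CPM in sham. Among the TAC libraries 10 of the 11 were highest in TAC 4, and miR-375-3p was lowest there, with 4.43 CPM against 5.45 to 10.6 CPM. The pancreatic list (3 miRNAs, led by miR-216a-5p) summed to 88.9 CPM in TAC 4 and to 27.2, 25.9 and 15.3 CPM in TAC 1 to 3. In Sham 1 to 4 it summed to 20.7, 33, 14.1 and 18.2 CPM, with miR-217-5p at 0 in 3 of these libraries. The part of such RNA in the level of the cluster was not tested, and values without these 2 libraries are given beside the results that rest on them. The 2 were picked for the levels of the same members, so adjusted p-values from fits without either or both are described only.

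The label of cardiomyocytes was set against marker miRNAs. The 6 cardiomyocyte markers, led by miR-1a-3p, the most abundant miRNA of both groups, summed to 180300 ± 16200 CPM in sham and 225600 ± 20800 CPM in TAC (SD, n = 4 per group). The markers did not all move alike. miR-1a-3p had 108660 ± 14450 and 158120 ± 29990 CPM, but miR-133a-3p 67356 ± 17750 and 62669 ± 9562 CPM. Sham and TAC libraries held 448 to 645 and 350 to 508 CPM of miR-208a-3p. They held 2652 to 3384 and 2957 to 4137 CPM of miR-133b-3p, and 581 to 778.5 and 655.5 to 829 CPM of miR-499-5p. The endothelial pair led by miR-126a-3p summed to 60050 ± 10600 and 32860 ± 2420 CPM, and the fibroblast and smooth muscle list, led by miR-143-3p, to 47600 ± 3050 and 42550 ± 3400 CPM. Leukocyte (1920 ± 480 and 1226 ± 173 CPM, led by miR-150-5p) and erythroid lists (962 ± 444 and 330 ± 249 CPM, led by miR-144-3p) were lower. Because the cluster is well known from brain, a neuronal list of 8 miRNAs was included. It summed to 1459 ± 286 CPM in sham and 1681 ± 274 CPM in TAC, nearly all of it miR-128-3p (1402 and 1651 CPM), while miR-124-3p, a defining marker of neurons, had 3 to 11 counts in a library, with 3 counts in Sham 2 and 8 in TAC 4. In total, 2 markers of that list were at 0 in at least 1 library.

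The cluster made up a small share of the cardiomyocyte miRNA. All 51 members together took 0.0988%, 0.191%, 0.118% and 0.0925% of the miRNA counts in Sham 1 to 4, and 0.0721%, 0.0781%, 0.0885% and 0.131% in TAC 1 to 4. The 95% Wilson intervals of these shares are at most 0.00737 percentage points wide and cover counting error only. Sham 2 and TAC 4 were the highest of their groups, and the groups overlapped. The means were 0.125 ± 0.0452% in sham and 0.0925 ± 0.0267% in TAC (SD, n = 4 per group), a log2 ratio of -0.44. Leaving out 1 library at a time moved that ratio between -0.65, without TAC 4, and -0.16, without Sham 2, and without both it was -0.38.

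A share of the total does not fix the direction, because the study normalised its profiles to 2 reference miRNAs (miR-19b-3p and miR-126a-3p), described as unaltered and checked there by quantitative PCR, which was not analysed here. Their share of the miRNA counts was lower in TAC. miR-126a-3p had 39017 ± 10590 CPM in sham and 22483 ± 1313 CPM in TAC, and miR-19b-3p had 213 ± 36.4 and 107 ± 21.4 CPM (SD, n = 4 per group). miR-126a-3p is also the leading endothelial marker above. Scaling to both multiplies the TAC library sizes by 0.537, which adds 0.90 to each log2 ratio. On that scale the cluster sum was 1252 ± 452 CPM in sham and 1723 ± 498 CPM in TAC (SD, n = 4 per group), a log2 ratio of 0.46 with overlapping groups. The sign of the difference in the cluster sum thus turned with the scaling, and on either scale the groups of 4 overlapped. Without Sham 2 and TAC 4 they did not: every TAC share of the total lay below every sham share, whereas with the reference factor taken anew (0.547) every TAC sum, 1318 to 1617 CPM, lay above every sham sum, 925 to 1184 CPM. Those means were 1454 ± 152 CPM in TAC and 1032 ± 136 CPM in sham (SD, n = 3 per group), a log2 ratio of 0.49. Sham 2 and TAC 4 had been picked for their high level of the cluster. Leaving them out narrows both groups, so this separation is described only. With clean tags, all cleaned reads of a library whether on a miRNA or not, as the denominator and all 8 libraries, the log2 ratio was -0.061.

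The part of the cluster held by its leading members and by each block varied less between libraries than the level of the cluster, whose coefficient of variation was 36.1% in sham and 28.9% in TAC. Parts that make up most of a sum are bounded by it, which limits their spread whatever the level does. miR-127-3p alone took 62.6%, 59.4%, 59.7% and 59.4% of the cluster counts in Sham 1 to 4, and 61.5%, 63.2%, 60.8% and 60.0% in TAC 1 to 4. It held about the same part in Sham 2 and TAC 4 as elsewhere. The 5 most abundant members together took 81.2 ± 1.01% in sham and 81.2 ± 1.38% in TAC. The upstream block took 70.1 ± 1.61% and 70.5 ± 1.42% (SD, n = 4 per group), and its ratio to the miR-379/410 group was 2.35 ± 0.185 in sham and 2.39 ± 0.165 in TAC. For many single members the part varied more than the level: its coefficient of variation was above that of the level for 8 of 26 members in sham and for 15 of 26 in TAC, with a median of 31.6% and 31.4%. miR-381-3p took 7.59% of the cluster in Sham 2 and 2.16% to 2.67% in the other sham libraries, and miR-541-5p 3.19% in Sham 2 against 6.94% to 7.26%. Of the single members, miR-300-3p was the one whose part of the cluster did not overlap between the groups, with 0.884% to 1.15% in sham and 0.569% to 0.673% in TAC.

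Levels between members are compared here as tag counts of RNAs of 21 to 25 bases, and ligation and amplification can favour some sequences over others. miR-127-3p, best known for its perfect match to Rtl1, was the most abundant member, ranking 70th of all miRNAs in TAC. It had 618, 1133, 707 and 549 CPM in Sham 1 to 4, and 443, 493, 538 and 788 CPM in TAC 1 to 4. Sham 2 and TAC 4 were again the highest of their groups, and the groups overlapped. The log2 fold change with reference scaling was 0.49 (standard error, SE, 0.25, edgeR adjusted p = 0.132), and with TMM, which sets the typical miRNA to no change, it was -0.090 (SE 0.25, adjusted p = 0.878). With reference scaling it was 0.67 without Sham 2 (edgeR adjusted p = 0.0335), 0.34 without TAC 4 (adjusted p = 0.255), 0.52 without Sham 2 and TAC 4 (adjusted p = 0.0372), and -0.065 without both with TMM (adjusted p = 0.875).

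The arms of miR-434, also opposite Rtl1, differed in pattern from miR-127-3p. miR-434-5p had 37.6, 33, 31.8 and 35.2 CPM in Sham 1 to 4, and 10.4, 15.4, 21.6 and 16.2 CPM in TAC 1 to 4. Every TAC value lay below every sham value, and neither Sham 2 nor TAC 4 stood out. With reference scaling this became a log2 fold change of -0.22 (SE 0.24, edgeR adjusted p = 0.472), with TMM -0.80 (SE 0.24, adjusted p = 0.0754), and by miRNA totals -1.11 (SE 0.24, adjusted p = 0.0135). The reference-scaled value lay between -0.42 (without TAC 3) and -0.053 (without Sham 1) with 1 library left out, and was -0.27 without Sham 2 and TAC 4. miR-434-3p had 22.9, 36.0, 30.8 and 25.2 CPM in Sham 1 to 4, and 15.1, 21.2, 34.7 and 23.3 CPM in TAC 1 to 4. Its groups overlapped, with log2 fold changes of 0.61 (SE 0.27, edgeR adjusted p = 0.0875) with reference scaling and 0.027 with TMM. With reference scaling it ranged from 0.35 without TAC 3 (adjusted p = 0.305) to 0.77 without TAC 1 (adjusted p = 0.0353).

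miR-136-3p, the other abundant member opposite Rtl1, followed the 2 libraries closely. It had 18.4, 66.6, 23.6 and 20.7 CPM in Sham 1 to 4, and 19.4, 21.0, 17.5 and 51.9 CPM in TAC 1 to 4. Outside Sham 2 and TAC 4 its values lay within 17.5 to 23.6 CPM in both groups. The log2 fold change with reference scaling was 0.66 (SE 0.47, edgeR adjusted p = 0.269), 1.21 without Sham 2 (adjusted p = 0.0327), 0.21 without TAC 4 (adjusted p = 0.714) and 0.76 without both (adjusted p = 0.0228). With TMM it was 0.091 (SE 0.48, edgeR adjusted p = 0.935) and, without both libraries, 0.16 (adjusted p = 0.741).

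In the miR-379/410 group, miR-411-5p and miR-379-5p come from neighbouring hairpins. miR-411-5p had 68.7, 173, 107 and 90.4 CPM in Sham 1 to 4, and 62.5, 80.9, 75.9 and 161 CPM in TAC 1 to 4. miR-379-5p had 24, 43.8, 28.5 and 24.2 CPM in Sham 1 to 4, and 21.2, 17.6, 32.3 and 39.5 CPM in TAC 1 to 4. Both were highest in Sham 2 and TAC 4, with overlapping groups, and miR-411-5p held 3.58 ± 0.484 times the count of miR-379-5p in sham and 3.49 ± 1.03 times in TAC (SD, n = 4 per group). With reference scaling the log2 fold changes were 0.69 for miR-411-5p (SE 0.34, edgeR adjusted p = 0.121) and 0.77 for miR-379-5p (SE 0.30, adjusted p = 0.056), and with TMM 0.12 and 0.19. miR-411-3p, the less abundant arm of its hairpin, had 11.9, 27.4, 17.1 and 16.0 CPM in Sham 1 to 4, and 13.4, 11.2, 17.2 and 25.3 CPM in TAC 1 to 4. It too was highest in Sham 2 and TAC 4, with a log2 fold change of 0.78 with reference scaling (SE 0.32, edgeR adjusted p = 0.0698). Without TAC 4 the reference-scaled values were 0.36 for miR-411-5p (edgeR adjusted p = 0.301), 0.60 for miR-379-5p (adjusted p = 0.104) and 0.57 for miR-411-3p (adjusted p = 0.151). Without Sham 2 and TAC 4 they were 0.59 for miR-411-5p (edgeR adjusted p = 0.0504), 0.76 for miR-379-5p (adjusted p = 0.0372) and 0.76 for miR-411-3p (adjusted p = 0.0495), and with TMM -0.0010, 0.17 and 0.16 (adjusted p of 0.768 or more).

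The near-identical miR-381-3p and miR-300-3p differed in their pattern. miR-381-3p had 24.8, 145, 31.6 and 20.0 CPM in Sham 1 to 4, and 21.1, 16.7, 15.3 and 15.1 CPM in TAC 1 to 4. The value in Sham 2 rested on 781 counts, and TAC 4 was the lowest of the TAC libraries. miR-300-3p, which differs from it in the seed (G4A), had 9.94, 16.9, 13.7 and 10.5 CPM in Sham 1 to 4, and 4.36, 5.26, 5.36 and 7.48 CPM in TAC 1 to 4, with every TAC value below every sham value. The count ratio of miR-381-3p to miR-300-3p was 8.58 in Sham 2 and 1.90 to 4.83 in the other 7 libraries. With reference scaling the log2 fold change of miR-381-3p, -0.81 (SE 0.55, edgeR adjusted p = 0.252), was the lowest of the 26, and it turned to 0.23 without Sham 2. That of miR-300-3p was -0.28 (SE 0.28, adjusted p = 0.425) with reference scaling and -0.86 (SE 0.28, adjusted p = 0.0844) with TMM. Without Sham 2 and TAC 4 these were -0.31 (edgeR adjusted p = 0.432) and -0.90 (adjusted p = 0.104), and with 1 library left out the first lay between -0.40 (without TAC 4) and -0.18 (without TAC 1).

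Within Mirg, miR-541-5p and both arms of miR-409 were among the 12 most abundant members. miR-541-5p, which has been described as a restraint on cardiomyocyte hypertrophy, had 70.2, 60.8, 86.0 and 64.2 CPM in Sham 1 to 4, and 41.9, 35.9, 58.7 and 43.6 CPM in TAC 1 to 4. Every TAC value lay below every sham value, and Sham 2 was the lowest sham library, unlike for most members. Its log2 fold change was 0.25 (SE 0.20, edgeR adjusted p = 0.319) with reference scaling, -0.33 (SE 0.19, adjusted p = 0.31) with TMM and -0.64 (SE 0.20, adjusted p = 0.0603) by miRNA totals. The reference-scaled value fell to 0.082 without TAC 3 (edgeR adjusted p = 0.76) and 0.11 without Sham 2 (adjusted p = 0.736), and was at most 0.37, without Sham 1.

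miR-409-5p had 30.2, 65.3, 19.0 and 15.7 CPM in Sham 1 to 4, and 19.1, 15.3, 18.6 and 36.7 CPM in TAC 1 to 4. miR-409-3p had 5.19, 17.8, 10.6 and 9.99 CPM in Sham 1 to 4, and 9.08, 7.69, 7.57 and 22.7 CPM in TAC 1 to 4. Both arms were highest in Sham 2 and TAC 4, and in both the groups overlapped. With reference scaling the log2 fold change was 0.35 (SE 0.44, edgeR adjusted p = 0.522) for the 5p arm and 1.00 (SE 0.44, adjusted p = 0.0869) for the 3p arm, and without Sham 2 and TAC 4 0.57 (adjusted p = 0.125) and 0.78 (adjusted p = 0.083). Single libraries moved both: the 5p arm was 0.062 without TAC 4, 0.082 without Sham 3 and 0.86 without Sham 2, and the 3p arm 0.52 without TAC 4 and 1.27 without Sham 2. With TMM the values were -0.22 (edgeR adjusted p = 0.804) and 0.43 (adjusted p = 0.611).

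**Figure D3:**
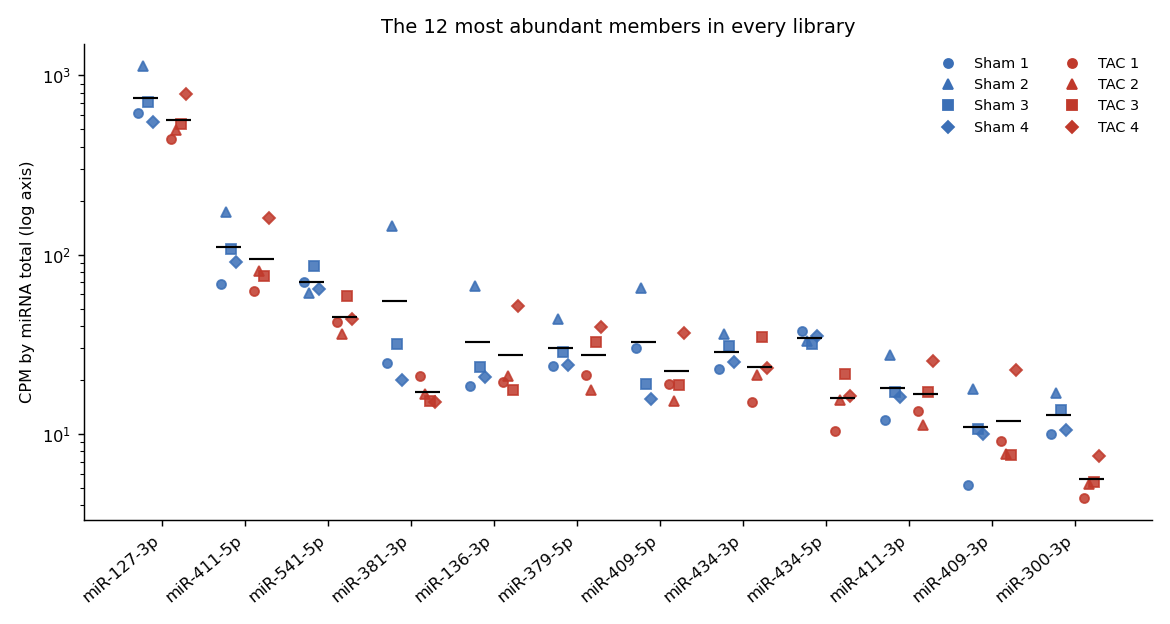
CPM by miRNA total (log axis) of the 12 most abundant members in every library; blue symbols are sham, red symbols TAC, the symbol shape gives the replicate number and black lines the group means. Sham 2 and TAC 4 (blue triangles, red diamonds) top most columns, while miR-541-5p, miR-434-5p and miR-300-3p have every TAC value below every sham value.

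Across all 26 members, with edgeR, reference scaling, the limits of 0.05 on adjusted p and 1.7 on fold, 1 member was called higher in TAC and 0 lower. Of all 409 miRNAs tested, 29.8% were called higher and 0.489% lower. At an unadjusted p below 0.05, 5 members were higher (miR-379-5p, miR-434-3p, miR-411-3p, miR-409-3p and miR-382-5p) and 0 lower, against 51.1% and 0.489% of all. DESeq2 on the same scaling called 4 members higher (miR-379-5p, miR-411-3p, miR-409-3p and miR-382-5p) and 0 lower, with 31.3% and 0.489% of all. The share of members called higher thus lay below the background with both tools. Members also had fewer counts, with 10 of 26 above a mean of 100 against 223 of 409, and the comparison does not allow for this. DESeq2 gave no p-value for miR-381-3p under either scaling, so this member could not be called there. Over all 8 libraries the spread was wider among members than among other miRNAs: the coefficient of variation of members with a mean above 100 counts had a median of 35.7% in sham and 35.6% in TAC, against 17.1% and 15.3% for all such miRNAs. Without Sham 2 and TAC 4 it was 15.4% and 19.5%, against 16.8% and 12.5%, so the members' median was then below that of all such miRNAs in sham and above it in TAC. Those libraries were picked because the members stood high in them, so the fall in the members' spread follows partly from that choice.

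The members were not set apart in the middle of their changes. With reference scaling the median log2 fold change was 0.56 over the 26 members and 0.59 over all 409 miRNAs, with TMM -0.014 and 0.0015, and by miRNA totals -0.33 and -0.31. By block, the medians with reference scaling were 0.55 for the 10 upstream members and 0.59 for the 16 of the miR-379/410 group. Without TAC 4 the members' median was 0.33 against 0.65 for all, without Sham 2 it was 0.70 against 0.54, and without both 0.51 against 0.60.

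**Figure D4:**
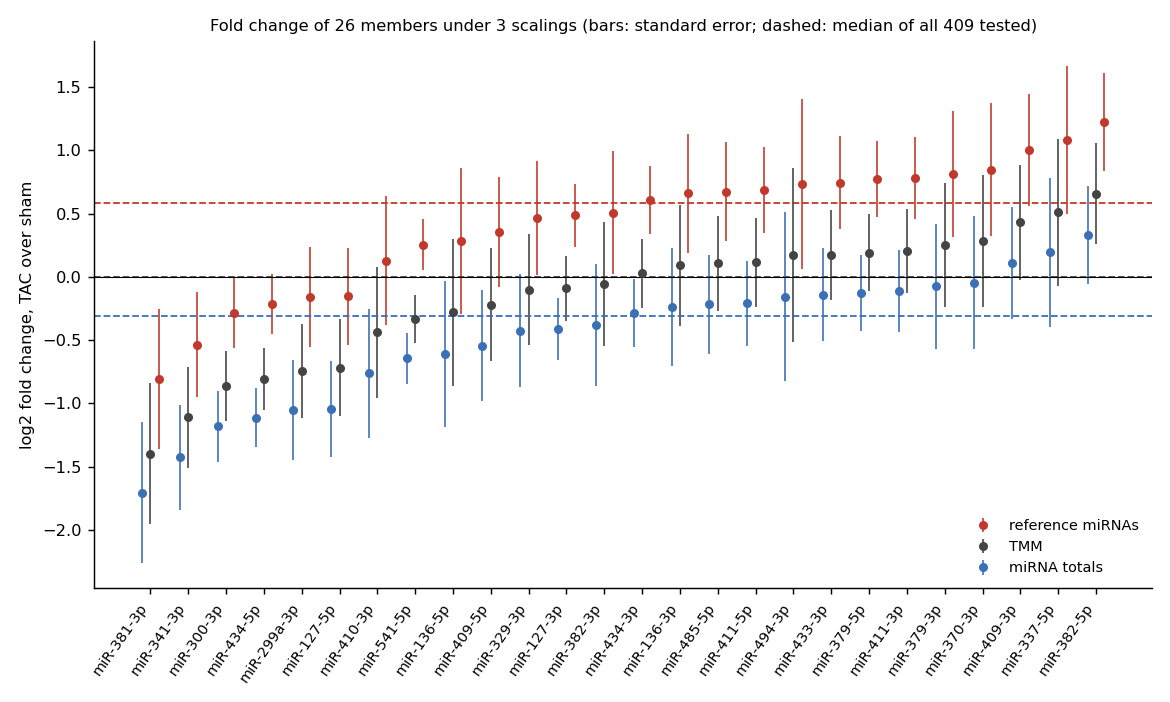
Log2 fold change of TAC over sham for the 26 members under 3 scalings (points, with standard errors as bars), ordered by the value with reference scaling; dashed lines give the median of all 409 miRNAs under each scaling, 0.59 for the reference miRNAs, 0.0015 for TMM and -0.31 for miRNA totals. The members spread around each dashed line, from -0.81 for miR-381-3p to 1.23 for miR-382-5p with reference scaling.

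With TMM, edgeR called 0 members higher and 0 lower, against 1.71% of all miRNAs in each direction. At an unadjusted p below 0.05 it found 0 higher and 4 lower (miR-381-3p, miR-434-5p, miR-300-3p and miR-341-3p), against 15.2% and 11.5% of all. DESeq2 with its own size factors called 0 higher and 2 lower, miR-434-5p and miR-300-3p, against 2.20% and 2.93%. Scaled to clean tags, edgeR called 0 higher and 0 lower, against 1.96% and 1.47%, with 0 higher and 4 lower at an unadjusted p below 0.05, against 16.1% and 8.31%. By miRNA totals, edgeR called 0 higher and 3 lower (miR-434-5p, miR-300-3p and miR-341-3p), against 0.244% and 9.05%. The 3 called lower became 0 without TAC 2 (3.67% of all), 1 without Sham 2 (6.85%) or Sham 3 (5.13%) and 2 without TAC 1 (6.36%). With reference-scaled values, 1 member lay above every sham value in every TAC library and 0 below, against 39.9% and 0.244% of all. By miRNA totals, 0 members lay wholly above and 4 (miR-541-5p, miR-434-5p, miR-300-3p and miR-341-3p) wholly below, against 2.93% and 19.6%. miR-341-3p, in an intron of Rian, falls outside the rule for members given in full and is named for these counts: it had 2.81, 3.71, 5.50 and 3.25 CPM in Sham 1 to 4 and 0.908, 1.54, 2.37 and 0.831 CPM in TAC 1 to 4, on 5 to 27 counts a library.

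The member called higher was miR-382-5p, from an exon of Mirg. It had 2.81, 4.08, 5.09 and 3.99 CPM in Sham 1 to 4, and 3.09, 3.59, 4.42 and 9.0 CPM in TAC 1 to 4, on 13 to 65 counts a library. By miRNA totals the groups overlapped, and TAC 4 held the highest value. After reference scaling the TAC values became 5.75, 6.69, 8.23 and 16.8, all above the highest sham value. The log2 fold change was 1.23 (SE 0.39, edgeR adjusted p = 0.0251), with TMM 0.66 (adjusted p = 0.332), and without Sham 2 and TAC 4 0.76 (adjusted p = 0.136). Leaving out 1 library at a time gave an adjusted p from 0.0192 to 0.066, above 0.05 without Sham 2 (0.066), Sham 3 (0.0538) or TAC 4 (0.0597). The log2 fold change in these 3 fits was 1.15, 1.28 and 0.84.

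Without Sham 2 the members called higher were 5 others: miR-411-5p (log2 fold change 0.91), miR-136-3p (1.21), miR-379-5p (0.93), miR-411-3p (0.98) and miR-409-3p (1.27), with adjusted p from 0.0327 to 0.0495 from edgeR, while 0 were called lower. Of all miRNAs 24.7% were called higher and 0.489% lower in that fit. Without TAC 4 the count was 0 in each direction, against 33.7% and 0.244% of all, with 2 members higher at an unadjusted p below 0.05, against 52.8% of all. Without both libraries it was also 0, against 29.6% and 0.489%, but 4 members had an adjusted p below 0.05 from edgeR (miR-127-3p, miR-136-3p, miR-379-5p and miR-411-3p), against 38.4% of all, and log2 fold changes of 0.52 to 0.76, under the 1.7-fold limit. With TMM none of these 4 had an adjusted p below 0.741 without both libraries. As both libraries were picked for high levels of the members, the adjusted p-values without them are no independent support for a change. The members highest in both libraries and not given in full above are miR-136-5p, miR-370-3p, miR-494-3p, miR-329-3p and miR-382-3p. Their reference-scaled log2 fold changes were 0.28, 0.85, 0.74, 0.46 and 0.51, and without both libraries 0.30, 0.77, 0.38, 0.62 and 0.083 (edgeR adjusted p from 0.258 to 0.914). Single libraries turned the sign of miR-136-5p (-0.26 without TAC 4, 0.85 without Sham 2) and miR-494-3p (-0.29 without TAC 4, 1.40 without Sham 2). The range was -0.030 (without TAC 4) to 0.72 for miR-382-3p, 0.45 to 1.16 for miR-370-3p and 0.27 to 0.73 for miR-329-3p.

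The ratio of the arms of 1 hairpin does not depend on any library scaling, since both arms are counted in the same library. A hairpin is cut by Drosha and Dicer into a duplex of a 5p and a 3p strand, of which an Argonaute protein keeps one. Both arms had a mean above 10 counts for 7 hairpins. The 5p arm was the more abundant in all 8 libraries for miR-379, miR-382, miR-409 and miR-411, and the 3p arm in all 8 for miR-127 and miR-136. In miR-127 the 5p arm took 0.651 ± 0.204% of the hairpin's counts in sham and 0.382 ± 0.078% in TAC (SD, n = 4 per group). miR-434 was the hairpin without a fixed order.

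For miR-434 the ratio of 5p to 3p counts, with 0.5 added to each, was 1.64, 0.918, 1.03 and 1.39 in Sham 1 to 4, and 0.689, 0.728, 0.624 and 0.697 in TAC 1 to 4. Every TAC ratio lay below every sham ratio, and the 5p arm led in 3 sham libraries and in no TAC library. The 5p share of the hairpin's counts went from 54.8 ± 6.59% to 40.6 ± 1.57% (SD, n = 4 per group). The difference of the mean log2 ratios was -0.83 (p = 0.0286 in a two-sided exact permutation test over 70 arrangements, the smallest p it can give, and 0.1 adjusted over the 7 hairpins), and -0.96 to -0.68 with 1 library left out.

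For miR-382 the ratio was 1.80, 1.36, 2.04 and 2.20 in Sham 1 to 4, and 2.69, 2.48, 5.18 and 2.67 in TAC 1 to 4. Every TAC ratio lay above every sham ratio, on counts of the 3p arm of only 5 to 24 a library. The difference of the mean log2 ratios was 0.77 (exact permutation p = 0.0286, adjusted p = 0.1). For the other 5 hairpins the groups overlapped, with differences of -0.72 for miR-127 (exact permutation p = 0.0571), -0.46 for miR-409, -0.37 for miR-136, -0.11 for miR-411 and -0.050 for miR-379. Leaving out single libraries moved these differences: they ranged from -0.91 to -0.56 for miR-127, from -0.73 to -0.11 (without Sham 1) for miR-409, from -0.51 to -0.20 (without Sham 3) for miR-136 and from -0.24 to -0.00080 (without TAC 3) for miR-411. That of miR-379 turned sign, from -0.31 without Sham 3 to 0.16 without Sham 1, and that of miR-382 was 0.52 without TAC 3. Hairpins whose groups did not overlap made up 2 of these 7 and 12.7% of the 110 hairpins with both arms above the same minimum, and none of the 110 had an adjusted p below 0.224 over all of them. By size of change miR-434 ranked 11th of the 110.

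**Figure D5:**
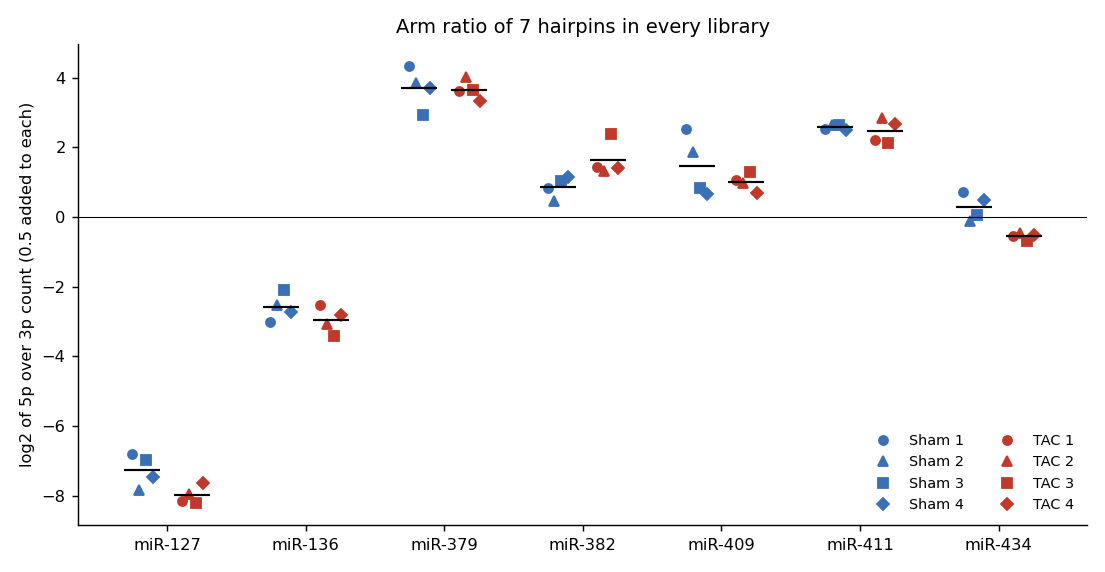
Log2 of the 5p over the 3p count (0.5 added to each) of 7 hairpins in every library; blue symbols are sham, red symbols TAC, the symbol shape gives the replicate number and black lines the group means. The sham and TAC symbols are separate for miR-434 (TAC lower) and miR-382 (TAC higher) and overlap for the other 5, and the level of a hairpin, from about -8 for miR-127 to about 4 for miR-379, differs far more than its groups do.

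The 25 members at or below a mean of 10 counts summed to 67, 118, 124 and 50 counts in Sham 1 to 4 and to 71, 107, 86 and 168 counts in TAC 1 to 4. That was 18.5 ± 6.05 CPM in sham and 15.9 ± 4.95 CPM in TAC (SD, n = 4 per group), with overlapping groups. They took 1.52 ± 0.427% and 1.71 ± 0.12% of the cluster. A further 13 mature miRNAs of the region had an entry without being listed as members, none of them above a mean of 10 counts, and they summed to 4.90 ± 0.74 CPM in sham and 4.70 ± 0.912 CPM in TAC by miRNA total. With reference scaling the TAC sum of these 13 became 8.75 ± 1.7 CPM, with every TAC value above every sham value, and that of the 25 became 29.5 ± 9.21 CPM, still overlapping.

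Imprinted miRNAs from other chromosomes were set beside the cluster. miR-335-5p, from an intron of the imprinted gene Mest, had 202, 352, 431 and 419 CPM in Sham 1 to 4, and 225, 152, 150 and 152 CPM in TAC 1 to 4. It was highest in Sham 3 and in TAC 1, not in Sham 2 and TAC 4, and its groups overlapped. Its log2 fold change was -0.15 (SE 0.24, edgeR adjusted p = 0.635) with reference scaling and -0.76 (SE 0.24, adjusted p = 0.0799) with TMM. miR-335-3p, from the other arm, had 135 ± 15 CPM in sham and 98.0 ± 19.5 CPM in TAC (SD, n = 4 per group), with overlapping groups. It was highest in Sham 2 (154 CPM against 122 to 141 CPM) and in TAC 1 (127 CPM against 84.2 to 94 CPM). With reference scaling every TAC value lay above every sham value, with a log2 fold change of 0.43 (SE 0.18, edgeR adjusted p = 0.0734), and with TMM it was -0.17 (adjusted p = 0.565). Both arms of miR-483, from the imprinted gene Igf2, had means of 2.5 and 7.0 counts and were not tested.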

How the data were processed

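The authors isolated cardiomyocytes from sham and TAC hearts, sequenced small RNA and deposited 1 table per library with whole-number counts per mature mouse miRNA, without normalization. The submitters' processing notes name the genome build mm10 and StringTie 1.3.1. The aligner, the miRNA reference version and the handling of tags that match several miRNAs are not given in the sources used here. Groups came from the sample labels. Totals lay between 4005668 and 7798943 counts per library, so that counting error is large for members near the minimum. No pair of libraries within a group differed by less than sampling noise (chi-square per degree of freedom 121.2 to 598.8).

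The members, the marker lists and the tests were chosen with earlier results of these data known. Members given in full are the 12 most abundant, those called with reference scaling or TMM, and the 3 highest and 3 lowest log2 fold changes above a mean of 100 counts.

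The test was edgeR 4.0.16 in R 4.3.3 (estimateDisp, glmQLFit and glmQLFTest, group only) on the 409 miRNAs with a mean above 10 counts, with Benjamini-Hochberg adjustment over all of them. Library sizes were miRNA totals, multiplied in TAC by 0.537. This factor is the geometric mean of 0.500 for miR-19b-3p and 0.576 for miR-126a-3p, each a ratio of mean CPM in TAC to mean CPM in sham. The biological coefficient of variation was 0.289. The standard error of a log2 fold change is its size divided by the square root of F. Alternatives were TMM, miRNA totals, each reference miRNA alone, a factor per library, clean tag totals, DESeq2 1.42.0, other minimums and fold changes, the replicate number as a block, and each library left out. Leaving out Sham 2 and TAC 4 together was added after the data had been seen. The fits were also run on simulated counts, in which the 2 reference miRNAs were unchanged and as many miRNAs were raised as lowered. A limit on false calls was set there for TMM only. The simulation thus cannot show whether the reference scaling holds for these data. Other values and the plots were made in Python 3.11.15 (pandas 2.3.3, scipy 1.17.1, numpy 2.4.6, matplotlib 3.10.9). Sequences and positions are those of RefSeq and GENCODE on GRCm38. As the libraries are 1 heart each, p-values measure the spread between hearts. The reference factor entered the fits as a fixed number. Its own uncertainty between hearts is therefore not in the standard errors and p-values with reference scaling.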

Additional observations from a re-analysis of the deposited data

Results flagged for a closer look

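In 74 groups of 4 libraries (members, sums and arm ratios), 8 held a library far from the other 3, with a gap above Dixon's 95% critical value for 4 values. Chance flags about 1 in 20 groups where groups are independent and values normally distributed. The groups here share libraries and include sums of the same members, so that rate is no standard for the 8. Of the 8, 3 lay in Sham 2 and 4 in TAC 4. In Sham 2 they were miR-381-3p with 145 CPM, miR-136-3p with 66.6 CPM and miR-494-3p with 10.01 CPM. In TAC 4 they were miR-136-3p with 51.9 CPM, miR-409-3p with 22.7 CPM, miR-494-3p with 10.5 CPM and the sum of the members at or below a mean of 10 counts, with 0.00233% of the miRNA total. The last was the ratio of the miR-382 arms in TAC 3, 5.18. miR-494-3p, described in work on cardiac ischaemia, had 2.16 to 3.06 CPM in the other sham libraries and 1.58 to 2.54 CPM in the other TAC libraries.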

How the results depend on the processing

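The count of 1 member called higher was 0 with TMM, miRNA totals, clean tag totals, DESeq2 with its own size factors, and without Sham 2 and TAC 4 under either scaling, 3 with miR-19b-3p alone as reference (37.9% of all miRNAs) and 4 with DESeq2 on the reference scaling. It stayed 1 with a minimum of 100 counts (36.8% of all), but was then miR-379-5p (edgeR adjusted p = 0.048), as miR-382-5p lay below that minimum. With 1 library left out the count ranged from 0 to 5 with reference scaling (0 without Sham 3 or TAC 4, where 20.8% and 33.7% of all miRNAs were called, 2 without TAC 1 or TAC 2, with 26.4% and 27.1%, 5 without Sham 2, with 24.7%, and 1 otherwise, with 28.1% to 39.1%) and was 0 with TMM (0.244% to 2.2% of all). The count of 0 called lower became 3 by miRNA totals (0 to 3 with 1 library left out, 0 without TAC 2), 2 with DESeq2 and its own size factors, and 1 (miR-434-5p) with TMM and a minimum of 100 counts, where 4.48% of all were called lower. The median log2 fold change of the members moved to -0.014 with TMM and -0.33 by miRNA totals. Of the 26 single members, 20 had a log2 fold change above 0 with reference scaling, 13 with TMM, 3 by miRNA totals and 13 by clean tags. The same held for 87.8%, 50.6%, 27.4% and 53.1% of all 409 miRNAs. Among the 13 given in full, the signs changed as follows with all 8 libraries and no block. miR-127-3p went to -0.090 with TMM, -0.41 by miRNA totals, -0.036 by clean tags and -0.12 with DESeq2. miR-541-5p went to -0.33, -0.64, -0.30 and -0.37, and miR-409-5p to -0.22, -0.54, -0.16 and -0.24, under the same alternatives. By miRNA totals, miR-411-5p went to -0.21, miR-136-3p to -0.24, miR-379-5p to -0.13, miR-434-3p to -0.29 (-0.0010 with DESeq2) and miR-411-3p to -0.11. With reference scaling and 1 library left out, miR-381-3p ranged from -1.08 (without Sham 3) to 0.23 (without Sham 2), and it was 0.34 without Sham 2 and TAC 4. With TMM and without TAC 4, miR-411-5p was -0.30, miR-136-3p -0.46, miR-379-5p -0.063, miR-411-3p -0.10 and miR-409-3p -0.15. Also with TMM, miR-434-3p was -0.21 without TAC 3, and without Sham 2 miR-127-3p was 0.11 and miR-409-5p 0.30. The log2 ratio of the cluster share ranged from -0.65 to -0.061, the latter with clean tags as denominator. The signs of the miR-434 and miR-382 arm ratios held under every alternative run for them. In all, 144 values of the main results moved by less than the limit (1.5 times for counts, 1 SD between replicates for other values, which lets a ratio near 0 change sign) and 26 by more, and for these 13 members 220 kept sign and call, 17 passed the threshold newly, 9 lost it and 24 changed sign. The 144 include the arm ratios of miR-411 and miR-434 at a minimum of 100 counts, which repeat the main values and could not move. They also include arm ratios with 1 added to each count, judged by sign and by p against 0.05 instead. Depth limits members near 10 counts most.

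The study speaks of 4 pairs of mice, and replicate numbers are shared by sham and TAC libraries. The deviations of same-numbered libraries correlated at 0.0972, -0.248, 0.205 and -0.153. Such correlations cannot tell whether the mice were paired, or whether the numbers give the pairs. The main fit used the group only, so its p-values leave out any pairing. With the number as a replicate block, 1 member was called higher and 0 lower with reference scaling (27.9% and 0.733% of all), and 0 in each direction with TMM (0.489% and 0.978%), where the log2 fold change was -0.086 for miR-127-3p, -0.35 for miR-541-5p, -0.097 for miR-409-5p and -0.022 for miR-434-3p. Not every library correlated best with its own number: Sham 2 did so with TAC 4 (0.367).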
